A study of Mus musculus with 6 samples.

Results

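The genes described here encode 10 cell surface proteins that have been used to sort or enrich spermatogonial stem cells, from which sperm production is renewed in the testis, namely Thy1, Itga6, Itgb1, Cdh1, Adgra3 (formerly Gpr125), Mcam, Epcam, Tspan8, Cd9 and Cd24a. They were taken by symbol and not by any measured value: every array probe whose transcript accession belongs to 1 of these symbols in the RefSeq gene table was read, which gave 13 probes. All 10 genes were found among the 20284 named genes with a probe, and all 10 were among the 14860 genes tested. Of these, 7 genes had 1 probe, and Itgb1, Adgra3 and Mcam had 2 probes each. The cells were cultured mouse spermatogonial stem cells kept with mouse embryonic fibroblasts as feeder cells. One group received 0.01 M captopril, an inhibitor of angiotensin-converting enzyme, and the control group received sterile water, to which the labels give the same 0.01 M, and RNA was taken after 24 h. Each group held 3 single-colour Agilent arrays, numbered 2, 3 and 4, from experiments that the labels call independent. The sources used here name no strain, age or genotype and do not say whether the cultures came from separate animals, so p-values measure the spread between these samples, which may be technical. The title of the series links the somatic form of the enzyme to self-renewal, and the comparison asks whether the transcripts of the sorting markers differ with the drug.

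No single surface protein marks only the stem cell, so the cells are usually enriched by combining several. ITGA6 and ITGB1 pair as an integrin that binds laminin of the basement membrane on which spermatogonia sit. CD9 and TSPAN8 are tetraspanins, membrane proteins that gather integrins and other partners into clusters, and CDH1 and EPCAM join neighbouring cells. THY1 and CD24 are small glycoproteins held in the membrane by a lipid anchor, MCAM is an adhesion molecule of the immunoglobulin family, and ADGRA3 is an adhesion G protein-coupled receptor. Several of these genes are also active in other cells, Thy1 and Itgb1 in fibroblasts among them, and in RNA of a whole culture fewer cells of a type and less RNA per cell cannot be told apart.

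All arrays lay on 1 slide and were scanned on 1 day, where slide row 1 held water replicates 2 and 3, and row 2 held water replicate 4 with the captopril arrays. On water replicate 3, 52.2% of the spots were well above background, and on the other arrays 57.3% to 60.5%. The number of arrays limits the precision. Water replicate 3 stood apart, with a correlation of 0.878 to 0.893 with the other arrays over 32380 probes, where the other 5 reached 0.970 to 0.991 among themselves. The fold changes below are therefore given with and without it. Of the 15 listed genes of undifferentiated spermatogonia 14 were measured, among them Ddx4, Dazl, Zbtb16, Sall4, Gfra1 and Ret. Pax7 was not well above background on enough arrays to be tested.

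No sorting marker passed the test between captopril and water. With all 6 arrays, limma called 0 of the 10 genes at an adjusted p under 0.05, where it called 0 of the 14860 genes tested, or 0% (the background). At an unadjusted p under 0.05 there were 0 of the 10 and 1224 of all genes. Without water replicate 3 it again called 0 of the 10, against a background of 92 genes or 0.619%, and at an unadjusted p under 0.05 there was 1 of the 10, Adgra3, where 2839 of all genes (19.1%) reached it. As log2 captopril minus water, the fold change of the 10 ran from −0.70 for Cdh1 to 0.14 for Adgra3 over 6 arrays, with a median of −0.06 beside −0.03 for all genes. Without water replicate 3 it ran from −0.30 to 0.52, with a median of 0.26 beside 0.07 for all genes. On the brighter or single probe of a gene, in no marker were the captopril arrays all above or all below the 3 water arrays, whereas the groups did not overlap in 21.5% of all genes. The values for Thy1, Adgra3, Epcam and Cd9 were positive over 6 arrays and turned negative after scaling by the array median (−0.24, −0.16, −0.24 and −0.20), which moved the median of all genes to −0.33. Standard errors were 0.24 to 0.59 over 6 arrays, around the 0.30 that was the median for all genes.

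**Figure D1:**
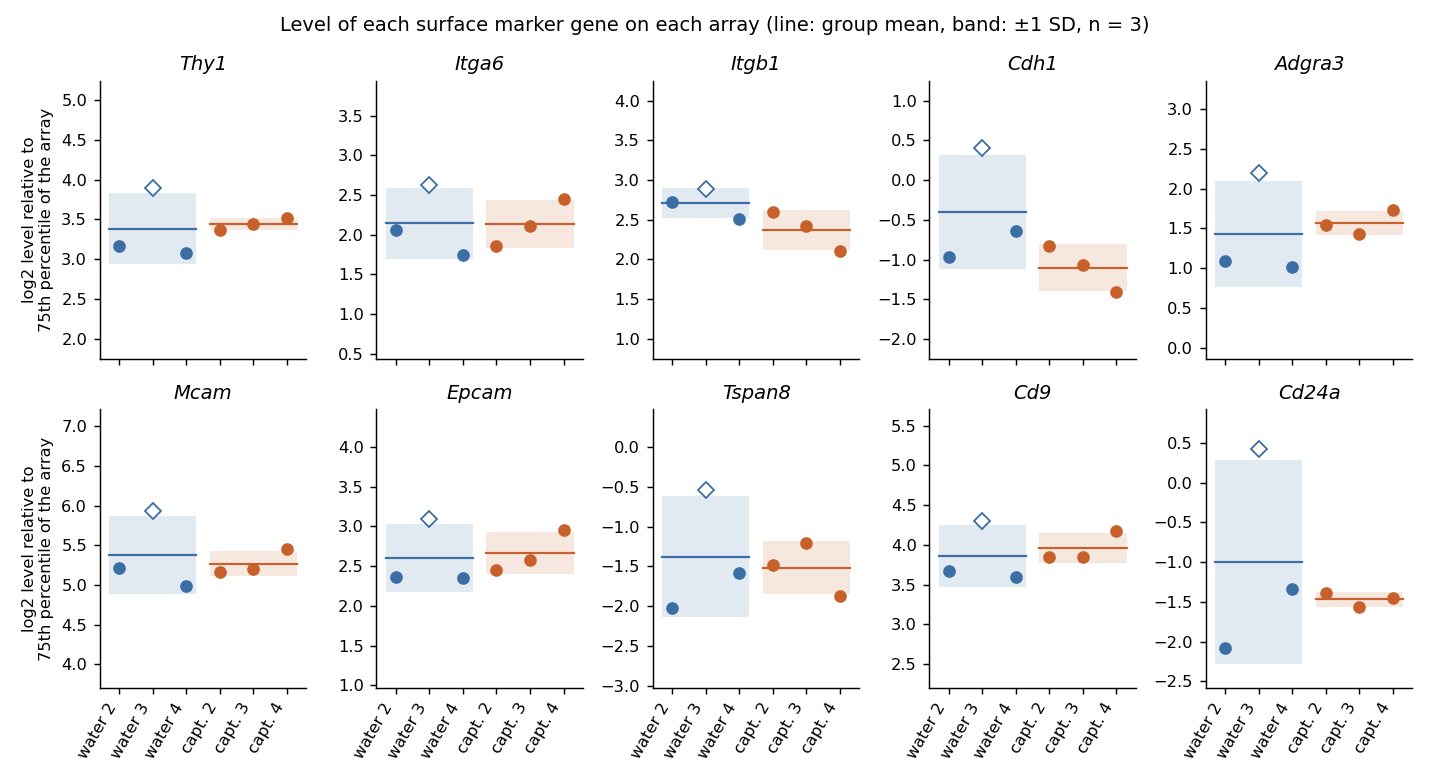
The log2 level of each sorting marker (vertical axis, relative to the 75th percentile of the array, each panel spanning the same number of log2 units) on the 3 water arrays (blue) and the 3 captopril arrays (orange), with the group mean as a line and ±1 SD (n = 3) as a band. Water replicate 3, the open diamond, is the highest array in all 10 panels, and the groups overlap in each.

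On the brighter or single probe, water replicate 3 had the highest level of all 6 arrays for each of the 10 genes, which was so for 54.8% of all genes. On the second probes of Itgb1, Adgra3 and Mcam it had the lowest. Set against the gene-wise median of the 6 arrays, the markers stood at a median of 0.65 on that array, from 0.33 to 1.85, and all genes at 0.36. On the other arrays the median of the markers lay between −0.19 and 0.18. This count depends on the scaling of the arrays: after scaling by the array median it was again 10 of 10 (74.3% of all genes), but after quantile normalization it was 6 of 10 (50%), without Itga6, Itgb1, Epcam and Cd9. The SD of the markers had a median of 0.47 in water and 0.22 with captopril, and that of all genes 0.45 and 0.20. Over water replicates 2 and 4 alone the median was 0.153, below that of captopril, and 0.108 for all genes. An SD over 2 arrays is not directly comparable with one over 3 captopril arrays.

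Of the laminin-binding integrin, the alpha subunit gene Itga6 had group means closer together than the error of their difference. Its log2 level, relative to the 75th percentile of the array, was 2.07, 2.63 and 1.74 on water replicates 2, 3 and 4 and 1.86, 2.11 and 2.45 on captopril replicates 2, 3 and 4. Captopril replicate 4 and water replicate 3 were high, and the groups overlapped. The difference of the means was −0.0078 (SE 0.30, limma adjusted p = 0.995), and its 95% confidence interval reached from 0.606-fold to 1.63-fold. Leaving out water replicate 3 gave 0.23 (SE 0.21, adjusted p = 0.569), and quantile normalization of 6 arrays gave 0.077, so that the direction turned.

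The beta subunit gene Itgb1, whose protein is the common partner of many alpha subunits, had a negative value in both comparisons. On its brighter probe the level was 2.72, 2.89 and 2.51 in water and 2.60, 2.42 and 2.10 with captopril. The lowest levels were those of captopril replicates 3 and 4, and captopril replicate 2 lay among the water arrays. Its log2 fold change was −0.33 (SE 0.24, adjusted p = 0.646), and −0.24 (SE 0.19, adjusted p = 0.515) without water replicate 3. Its second probe pointed the other way, with levels of 1.00, −1.52 and 0.92 in water and 1.17, 0.97 and 1.04 with captopril. There the difference was 0.92 (SE 0.67, adjusted p = 0.599 over all probes) and shrank to 0.10 without water replicate 3, the single low array. The mean of both probes gave 0.30 over 6 arrays and −0.071 without water replicate 3.

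The tetraspanin gene Cd9 stood slightly higher with captopril than on water replicates 2 and 4. Its level was 3.67, 4.31 and 3.60 in water and 3.85, 3.85 and 4.18 with captopril. All captopril arrays lay above water replicates 2 and 4 and below water replicate 3. Captopril minus water gave 0.10 (SE 0.27, adjusted p = 0.917) over 6 arrays and 0.32 (SE 0.17, adjusted p = 0.330) without water replicate 3, where the 95% interval reached from 0.953-fold to 1.64-fold.

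Tspan8, whose protein is the other tetraspanin of the set and marks a subset of undifferentiated spermatogonia, varied more between the arrays of a group than between the groups. Its level was −2.02, −0.53 and −1.59 in water and −1.48, −1.20 and −1.87 with captopril. The lowest and the highest array were both water arrays. Captopril minus water gave −0.14 (SE 0.41, adjusted p = 0.925), and 0.28 (SE 0.24, adjusted p = 0.534) without water replicate 3.

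Cdh1, the gene of E-cadherin, had the most negative value of the set. Its probe was printed 10 times on each array, and the mean level of these spots was −0.97, 0.40 and −0.64 in water and −0.83, −1.07 and −1.41 with captopril. Captopril replicate 4 was the lowest array and water replicate 3 the highest, and captopril replicate 2 lay between water replicates 2 and 4. Its log2 fold change was −0.70 (SE 0.39, adjusted p = 0.631), and its 95% interval reached from 0.328-fold to 1.16-fold. With that water array left out, the value was −0.30 (SE 0.21, adjusted p = 0.468).

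The spots of that probe also show how far single spots of this probe spread on each array. On water replicate 4 they lay between −0.72 and −0.55, with an SD of 0.06. On water replicate 2 they ran from −1.79 to −0.66 (SD 0.35) and on captopril replicate 3 from −1.86 to −0.68 (SD 0.38). On water replicate 3, 9 spots lay between 0.28 and 0.49, and 1 spot at −0.997 carried an outlier flag and was left out. The spots of captopril replicate 2, from −1.03 to −0.70, lay within the range of water replicate 2, and those of captopril replicate 4, from −1.75 to −1.11, lay below all spots of water replicate 4. The other markers had 1 spot per probe, so that no such spread within an array is known for them.

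**Figure D2:**
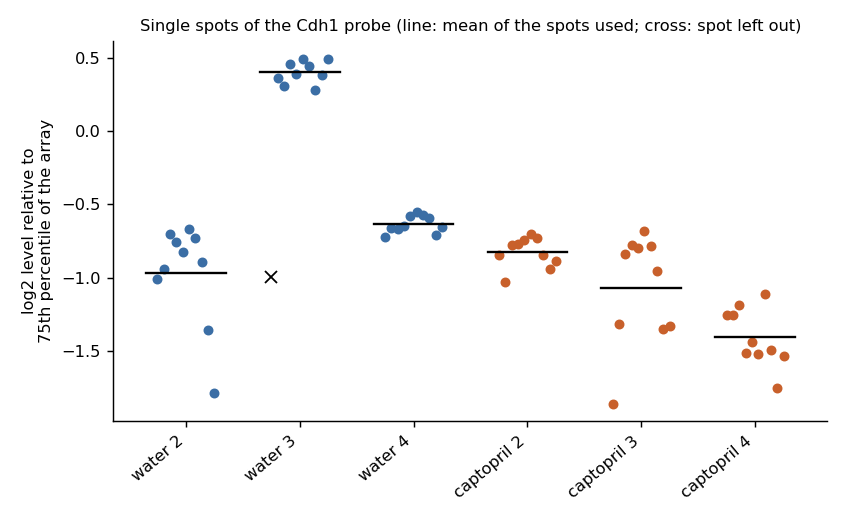
The log2 level (vertical axis, relative to the 75th percentile of the array) of each spot of the Cdh1 probe on each array, with the mean of the spots used as a line and the spot left out as a cross. The spots used on water replicate 3 lie above those of every other array, and those of water replicate 2 and captopril replicate 3 spread most.

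Epcam, the gene of the epithelial cell adhesion molecule, stood above water replicates 2 and 4 on every captopril array. Its level was 2.37, 3.09 and 2.35 in water and 2.45, 2.58 and 2.96 with captopril. The gap was small beside the spread within captopril, where replicate 4 was the highest. Its log2 fold change was 0.06 (SE 0.29, adjusted p = 0.957), and 0.30 (SE 0.19, adjusted p = 0.410) without water replicate 3.

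Thy1, the gene of the lipid-anchored glycoprotein THY1, had the smallest spread with captopril of the 10 genes. Its level was 3.17, 3.90 and 3.08 in water and 3.37, 3.45 and 3.52 with captopril. The captopril arrays lay above water replicates 2 and 4 and below water replicate 3. Over 6 arrays the difference was 0.06 (SE 0.28, adjusted p = 0.953), and 0.32 (SE 0.14, adjusted p = 0.279) without water replicate 3. In that comparison the level was 3.13 ± 0.06 (SD, n = 2) in water and 3.45 ± 0.07 (SD, n = 3) with captopril.

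Cd24a, the gene of the lipid-anchored glycoprotein CD24, had the widest spread in water. Its level was −2.09, 0.43 and −1.34 in water and −1.39, −1.57 and −1.45 with captopril. The 3 captopril arrays lay between water replicates 2 and 4, and water replicate 3 stood far above them all. Its log2 fold change was −0.47 (SE 0.59, adjusted p = 0.787), and 0.24 (SE 0.23, adjusted p = 0.583) without water replicate 3, so that its sign rested on that array.

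Adgra3, the gene of the adhesion G protein-coupled receptor, had the most positive value of the set on its brighter probe. The level there was 1.08, 2.20 and 1.01 in water and 1.55, 1.43 and 1.73 with captopril. Leaving out water replicate 3, the level was 1.05 ± 0.05 (SD, n = 2) in water and 1.57 ± 0.15 (SD, n = 3) with captopril. The log2 fold change was then 0.52 (SE 0.16), with a 95% interval from 1.11-fold to 1.86-fold, an unadjusted p of 0.0126 and an adjusted p of 0.155 by limma. An unadjusted p under 0.05 with a higher level in captopril was found for 12.1% of all genes in that comparison, so that a single such gene among 10 is near the background. Over 6 arrays the value was 0.14 (SE 0.36, adjusted p = 0.912).

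The second probe of Adgra3 was dim and gave a smaller difference. Its level was −4.99, −6.95 and −5.05 in water and −4.96, −4.91 and −4.70 with captopril, and on water replicates 3 and 4 it was not well above background. All 3 captopril arrays lay above all 3 water arrays on this probe. On the probe that stood for each gene, this was so for 1493 of the 14860 genes tested. The nearest levels on the second probe of Adgra3 were −4.96 on captopril replicate 2 and −4.99 on water replicate 2. The difference was 0.80 (SE 0.54, adjusted p = 0.593 over all probes), and 0.16 (SE 0.16, adjusted p = 0.586) without water replicate 3, against 0.52 on the brighter probe.

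Mcam, the gene of the melanoma cell adhesion molecule, depended on the probe more than any other marker. On its brighter probe the level was 5.22, 5.93 and 4.99 in water and 5.16, 5.20 and 5.45 with captopril, and captopril minus water was −0.11 (SE 0.30, adjusted p = 0.917). The groups overlapped on this probe with and without water replicate 3. On its second probe the level was 0.35, −6.57 and 0.14 in water and 0.32, 0.14 and 0.58 with captopril. Water replicate 3 was the highest array on the first probe and the lowest on the second, where it was not well above background, while the other 5 arrays lay within a narrow range on both. The second probe therefore gave a difference of 2.37 with an SE of 1.78 (adjusted p = 0.602 over all probes), and the mean of both probes gave 1.13. With water replicate 3 left out, the probes gave 0.17 (SE 0.17) and 0.10 (SE 0.19), and their mean 0.135.

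**Figure D3:**
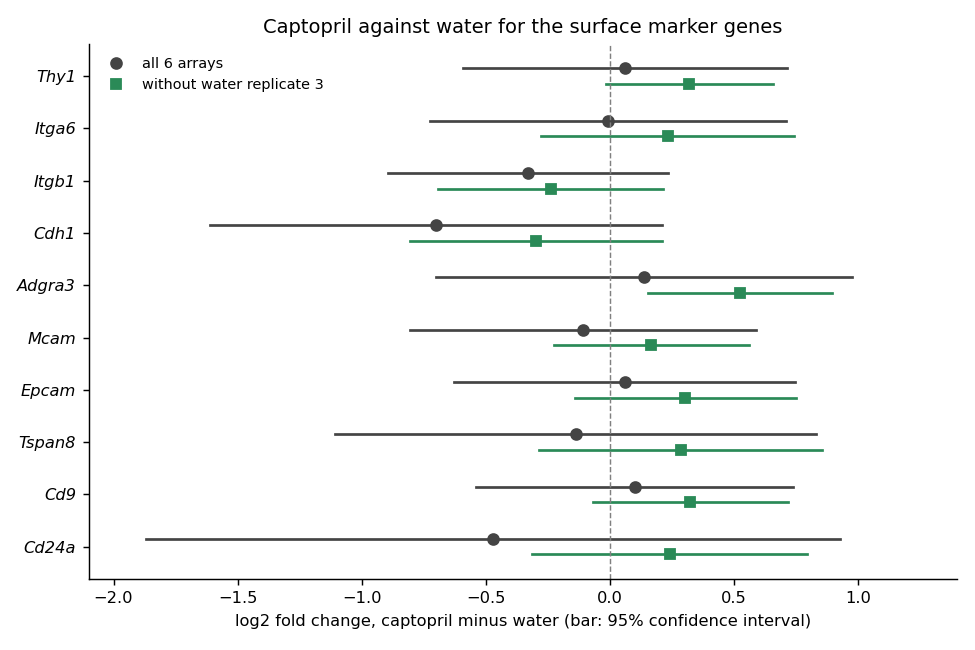
The log2 fold change (horizontal axis, captopril minus water) of each sorting marker on its brighter probe, with 95% confidence intervals, over all 6 arrays (grey circles) and without water replicate 3 (green squares). All intervals over 6 arrays include 0, and without water replicate 3 only that of Adgra3 lies above 0, before adjustment over all genes.

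Neither probe of these 3 genes passed the test over all 32380 probes, of which limma called 0 (0%) with 6 arrays and 91 (0.281%) without water replicate 3. Between the brighter and the second probe of Mcam the difference in log2 level was 4.84 to 5.06 on the other 5 arrays and 12.49 on water replicate 3. For Itgb1 it was 1.06 to 1.72 and 4.41, and for Adgra3 it was 6.06 to 6.51 and 9.15. In all 3 genes the brighter probe was highest and the second probe lowest on water replicate 3, a pattern that 25.2% of the 3744 genes with 2 or more tested probes showed. Across those genes the difference between probes lay over 1 log2 unit from its median over the arrays in 48.4% of genes on water replicate 3. On the other arrays this share was 1.15% and 1.87% (water replicates 2 and 4), 0.641% and 2.06% (captopril replicates 2 and 3) and 8.47% (captopril replicate 4). A larger departure on water replicate 3 than that of Itgb1 was found in 18.7% of these genes. For Adgra3 this share was 20.1%, and for Mcam it was 0.454%. For Mcam and Adgra3 the second probe was not well above background on that array, so the differences of 12.49 and 9.15 are the values as measured and no exact ratio of levels. The part of this array's probe differences in the levels of the markers with 1 probe was not tested.

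**Figure D4:**
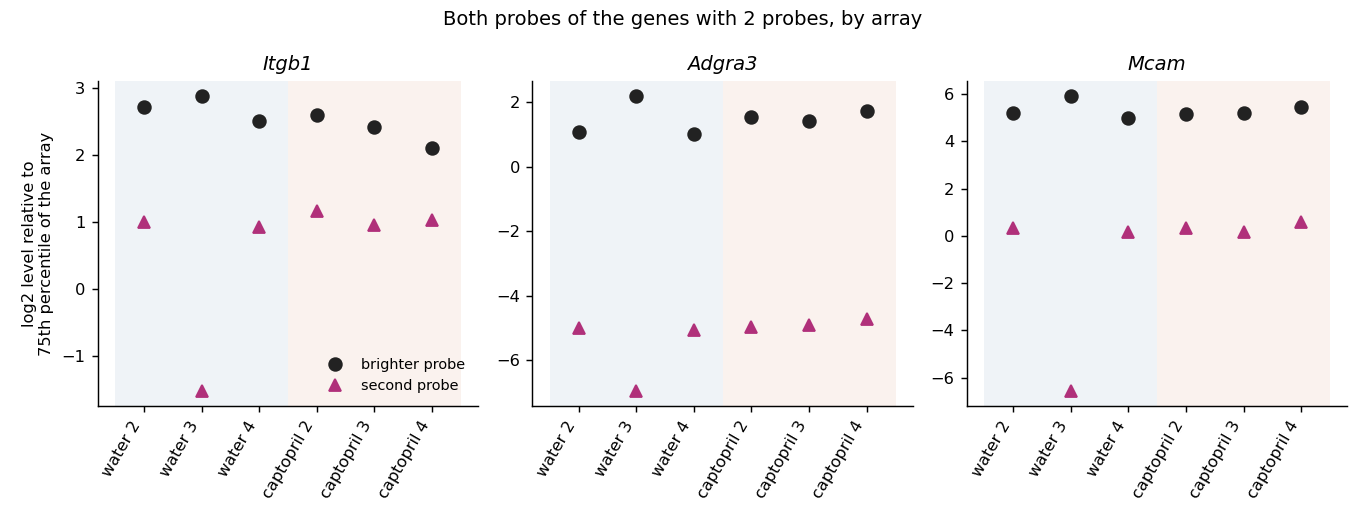
The log2 level (vertical axis, relative to the 75th percentile of the array) of both probes of Itgb1, Adgra3 and Mcam on the water arrays (blue ground) and captopril arrays (orange ground). The second probe, the triangle, falls on water replicate 3 in all 3 genes, to −6.57 for Mcam, where the brighter probe is highest.

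**Figure D5:**
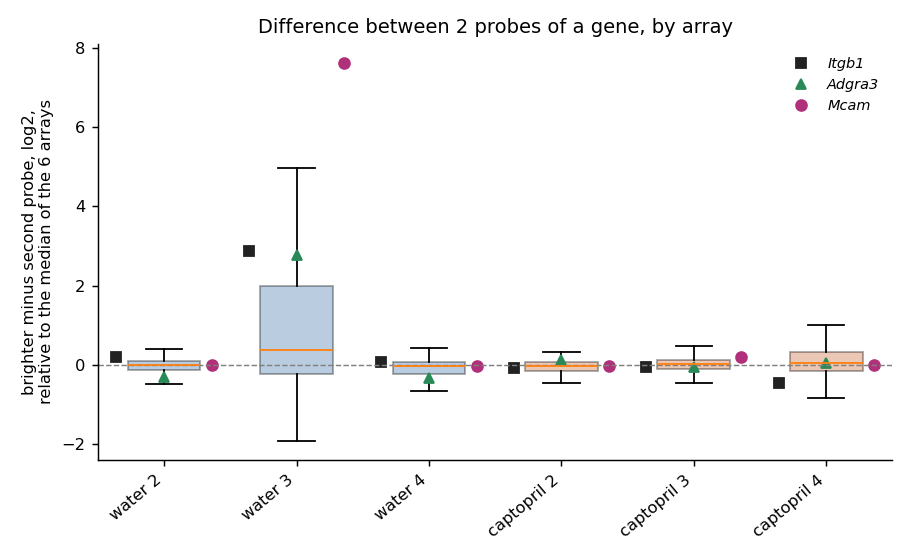
The difference in log2 level between the brighter and the second probe of a gene, relative to its median over the 6 arrays (vertical axis), on each array, with boxes for the quartiles and whiskers for the 5th and 95th percentiles of the 3744 genes with 2 or more tested probes, and points for Itgb1, Adgra3 and Mcam. The box of water replicate 3 is the widest, and the 3 markers lie above 0 there.

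With water replicate 3 left out, 8 of the 10 markers had a positive value, where 58.5% of all genes did. After quantile normalization of those arrays, where Mcam turned negative, it was 7 of 10 (50.1% of all genes). With scaling by the array median it was 8 of 10 (42.1% of all genes). In 4 of the 10, Thy1, Adgra3, Epcam and Cd9, every captopril array lay above both remaining water arrays, and in 0 of the 10 every captopril array lay below. The background was 27.2% of all genes for the first and 15.7% for the second. The same 4 genes met the first condition after scaling by the array median (16.6% of all genes) and after quantile normalization (23.4%), where Mcam alone met the second. None of the 4 passed the test.

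RefSeq promoter sequence (build GRCm38.p6) was at hand for 6 of the 10 genes, and the 120 bases before the gene's start are printed, 5′ to 3′, for the 3 of these 6 that stood above both remaining water arrays, since they shared that pattern. Capitals mark the GC box, searched as GGGCGG on either strand (CCGCCC on the other), a motif bound by Sp-family factors. The printed window of Adgra3 is chr5:50058997-50059116 on the minus strand, that of Cd9 chr6:125494761-125494880 on the minus strand and that of Epcam chr17:87635859-87635978 on the plus strand.
Adgra3: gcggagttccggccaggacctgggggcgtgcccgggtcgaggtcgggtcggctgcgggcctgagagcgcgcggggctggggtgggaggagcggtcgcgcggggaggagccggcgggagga
Cd9: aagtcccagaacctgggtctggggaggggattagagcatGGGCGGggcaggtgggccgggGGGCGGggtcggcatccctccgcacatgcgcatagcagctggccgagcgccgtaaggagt
Epcam: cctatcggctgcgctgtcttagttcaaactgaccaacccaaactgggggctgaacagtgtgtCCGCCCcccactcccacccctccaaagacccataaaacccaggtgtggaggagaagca

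The window held 2 GC boxes in Cd9, 1 in Epcam and none in Adgra3, and 26.5% of the 32851 promoters in the table held at least 1 in the same window. Of the other markers in the table, Mcam held 5 and Itgb1 and Tspan8 held none. The TATA box, searched as TATAAA on either strand (TTTATA on the other), was in none of the 6 windows and in 6.34% of all promoters. The windows of Adgra3, Cd9 and Epcam were 80.0%, 69.2% and 57.5% G or C, beside a mean of 55.3% for all promoters. A match is a description of these letters only.

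The genes that work with the markers showed no call over 6 arrays, in any of the lists. Of the other integrin subunits 18 were tested, with a median log2 fold change of 0.12 and 11 positive values, and without water replicate 3 the median was 0.14 with 14 positive values. Itga5, the fibronectin-binding alpha subunit, stood at 0.68 (SE 0.30, adjusted p = 0.612), and leaving that array out gave 0.38 (SE 0.14, adjusted p = 0.227). Itga2b, which encodes the platelet alpha subunit, stood at 1.4 (SE 0.73) and 0.48 (SE 0.16), with a level of −6.89 on water replicate 3, where it was lowest. The 13 tested adaptors that tie integrins to the cytoskeleton had a median of 0.0004 over 6 arrays and 0.12 on the 5 arrays. The focal adhesion kinase gene Ptk2 had −0.62 (SE 0.36, adjusted p = 0.631) and, without water replicate 3, −0.23 (SE 0.14), and the vinculin gene Vcl at 0.52 (SE 0.30, adjusted p = 0.631) and 0.23 (SE 0.16). Of the laminins and other basement membrane ligands 15 were tested, with a median of 0.01 and 0.06, and the laminin gene Lama1 and the collagen gene Col4a1 had the smallest p, at −0.65 (SE 0.28, adjusted p = 0.605) and −0.68 (SE 0.31, adjusted p = 0.615), and −0.41 (SE 0.15) and −0.42 (SE 0.20) on 5 arrays. None of these passed without water replicate 3 either, where the smallest adjusted p of these 3 lists were 0.0856, 0.230 and 0.0832.

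Among 26 other tetraspanins and their immunoglobulin-family partners the median was 0.09 over 6 arrays and 0.17 without water replicate 3, with 15 and 18 positive values. Tspan32 had the smallest p, at 0.89 (SE 0.34, adjusted p = 0.589) and 1.16 (SE 0.27, adjusted p = 0.0937), and 5 arrays measured it well above background. Tspan12 stood at −0.80 (SE 0.33) and −0.49 (SE 0.19). Among 12 cadherins and catenins the median was −0.19 and 0.06, and the alpha-catenin gene Ctnna1, whose protein links cadherins to actin, stood at −0.72 (SE 0.35, adjusted p = 0.618) and −0.37 (SE 0.19), with Ctnna2 at 0.76 (SE 0.35, adjusted p = 0.616) and 0.54 (SE 0.30). All 6 genes of factors known to repress the E-cadherin gene had a negative value over 6 arrays, where 46.7% of all genes were positive. Their median was −0.55. On 5 arrays the median was −0.13, with 4 of 6 negative, and Zeb2 stood at −1.12 (SE 0.44, adjusted p = 0.595) and −0.70 (SE 0.31, adjusted p = 0.283). Snai1, another of these, stood at −0.70 (SE 0.41) and −0.32 (SE 0.29). All 6 had their highest level on water replicate 3, as did all 10 sorting markers and 54.8% of all genes.

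Over the 137 distinct genes tested in these lists there was 1 call, without water replicate 3, beside 0.619% of all genes, so that the count is near the background. It fell among the 19 tested adhesion G protein-coupled receptors other than Adgra3, where Adgrv1, a receptor known from the inner ear, was higher with captopril without water replicate 3 (log2 fold change 1.12, SE 0.15, limma adjusted p = 0.0430). On those 5 arrays limma called 0 of all genes after quantile normalization, and 0 with no filter on dim probes, so that the call is lost there. Its level was −4.02, −4.19 and −3.77 in water and −2.76, −2.78 and −2.78 with captopril. All captopril arrays thus lay above all 3 water arrays, as they did for 1493 of the 14860 genes tested. Over 6 arrays Adgrv1 stood at 1.22 (SE 0.22, adjusted p = 0.455). Adgrd1 stood at −1.27 (SE 0.25, adjusted p = 0.455) and −1.16 (SE 0.21, adjusted p = 0.0643), from a dim probe that only 3 arrays measured well above background. Of 20 other cell adhesion molecules the median was 0.0012 over 6 arrays and −0.04 without water replicate 3. Jam2, a junctional adhesion molecule gene, stood at 0.61 (SE 0.31, adjusted p = 0.624) and 0.93 (SE 0.15, adjusted p = 0.0559), and Nectin3 at −0.70 (SE 0.24) and −0.63 (SE 0.20, adjusted p = 0.173).

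Surface proteins whose absence is used to enrich the stem cells did not pass the test either. All 9 listed genes, among them Kit, Itgav, H2-K1 and B2m, were tested, with a median of 0.04 over 6 arrays and 0.07 without water replicate 3. The smallest p were those of Prom1 at −1.4 (SE 0.48, adjusted p = 0.587) and of the leukocyte gene Ptprc at 1.21 (SE 0.45, adjusted p = 0.589), which without water replicate 3 stood at −0.84 (adjusted p = 0.0942) and 0.70 (adjusted p = 0.161). Both were dim, well above background on 3 and 4 of the 6 arrays.

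Markers of other cells differed in how they varied over the arrays. Of the feeder fibroblast markers all 15 were measured on all 6 arrays, 14 of them highest on water replicate 3, where 54.8% of all genes were. The count was 9 of 14 for undifferentiated spermatogonia and 3 of 6 for leukocytes, near that share. Among the small lists it was 4 of 4 for Sertoli, 3 of 5 for smooth muscle and 1 of 1 for Leydig cells. It was 1 of 4 for endothelial and 1 of 6 for simple epithelial cells. The summed signal of the fibroblast markers, in units of the 75th percentile of the array, was 157.7, 261.3 and 139.4 in water and 142.6, 122.4 and 152.7 with captopril. The median log2 fold change was −0.51, with 13 of 15 negative and 2 positive, beside −0.03 and 46.7% positive for all genes. Without water replicate 3 it was −0.33, with 12 negative and 3 positive, beside 0.07 and 58.5% positive for all genes. The collagen gene Col5a2 passed there (−1.4, SE 0.21, limma adjusted p = 0.0489), 1 of 15 where 0.619% of all genes did. That call too is lost after quantile normalization and with no filter, and the gene is named here after its values were seen. For the undifferentiated spermatogonia the sum was 87.4, 116.4 and 83.1 in water and 87.2, 89.7 and 109.2 with captopril, with a median fold change of 0.02 and, without water replicate 3, of 0.14. Of the Leydig cell markers Star alone was tested, with a signal of at most 0.133, and Cyp11a1, Cyp17a1, Hsd3b1 and Lhcgr were not. Of the Sertoli cell markers 4 of 8 were tested, without Gata4, Amh, Cldn11 and Fshr, with a sum of 4.81 to 9.34 in water and 4.55 to 6.33 with captopril. The endothelial sum was 1.03 to 2.00 in water and 1.37 to 1.92 with captopril, without Cdh5 and Tek, and that of 6 simple epithelial markers 2.95 to 3.85 and 2.32 to 2.99. The sum of 6 leukocyte markers was 40.1 to 66.7 and 45.2 to 57.9, most of it from the probe of Itgam (log2 level 5.0866 to 5.9995), while that of the defining gene Ptprc lay between −6.85 and −4.33. The sum of 5 smooth muscle markers was 4.78 to 5.86 and 4.99 to 5.3. The part of other cells, feeder fibroblasts included, in the levels of the sorting markers was not tested.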

How the data were processed

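RNA of 6 cultures was measured on single-colour Agilent arrays. Scanner intensity per spot comes from Agilent Feature Extraction, which per the file headers was version 11.5.1.1 (the submitters' processing notes name 10.7) and corrected the background within an array. How the authors made the deposited log2 table is not stated. It differed from log2 of the processed intensity by a constant per array, within 0.01 for at least 99.7% of probes, and its medians were −3.80, −4.24 and −3.79 in water and −3.72, −3.63 and −3.62 with captopril, in the order of replicates 2, 3 and 4. Its scale is thus log2, and the basis of its centring stays unknown.

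Log2 of the processed signal minus the 75th percentile of the array was used, over spots that were neither controls nor flagged as outliers, with the spots of a probe averaged. Of 55681 probes, 26762 had 1 symbol in the RefSeq table (assembly GRCm38.p6), by accession. The array design is on mm9, so no coordinates of probes or genes are given, other than the RefSeq promoter windows on GRCm38.p6. A probe entered if it had a value on all 6 arrays and was well above background on at least 3, and the brightest such probe stood for its gene. limma 3.58.1 in R 4.3.3 (lmFit, eBayes, two-sided) was run on all genes and on all probes, and p-values adjusted by Benjamini-Hochberg were called under 0.05. The code was tested on simulated data. Tables were handled with pandas 2.3.3 and numpy 2.4.6 under Python 3.11.15, and plots drawn with matplotlib 3.10.9. From the related lists, up to 3 genes past the threshold and the 2 with the smallest p over 6 arrays were named. Further genes named for a list serve only to say what it holds. The markers, lists and tests were chosen with earlier results of these data known. The alternatives were other background correction, scaling, dim-probe filters, probe averaging, variance models, blocks and arrays left out.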

Additional observations from a re-analysis of the deposited data

How the results depend on the processing

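In all 21 alternatives 0 of the 10 markers passed, with a smallest adjusted p of 0.131, and 164 of 210 values of single markers kept their sign. Cdh1 was negative in each. Part of the 164 was fixed in advance. The dim-probe filters, the variance model and the replicate block left every marker's fold change over 6 arrays as it was. The mean of probes could change only the 3 genes with 2 probes. Over 6 arrays, and with any array other than water replicate 3 left out, limma called 0 of all genes. There 0 of the markers is the same as the background. Log2 fold changes that turned were the following. Leaving out each array in turn, Thy1 ran from −0.089 to 0.32, Itga6 from −0.21 to 0.23, Adgra3 from −0.073 to 0.52, Mcam from −0.30 to 0.17, Epcam from −0.088 to 0.30, Tspan8 from −0.46 to 0.28, Cd9 from −0.029 to 0.32 and Cd24a from −1.01 to 0.24, and limma called 0 to 92 of all genes, the 92 without water replicate 3. With that array left out and no filter on dim probes, Itga6, Mcam, Tspan8 and Cd24a were 0.23, 0.17, 0.28 and 0.24; with the mean of probes 0.23, 0.135, 0.28 and 0.24 (137 of all genes called); with median scaling 0.10, 0.035, 0.15 and 0.11 (39 called). Quantile normalization of those 5 arrays gave Itga6 0.19, Tspan8 0.23 and Cd24a 0.19. All 92 calls, Adgrv1 and Col5a2 included, were lost on those arrays with quantile normalization and with no filter, where 0 of all genes were called. Over 6 arrays, normexp gave Thy1 −0.0001 and Epcam −0.098, quantile normalization Itga6 0.077, the mean of probes Itgb1 0.30 (−0.071 without water replicate 3) and Mcam 1.13, and median scaling Thy1 −0.24, Adgra3 −0.16, Epcam −0.24 and Cd9 −0.20. With slide row as a block, or in slide row 2 alone, Itga6, Mcam and Tspan8 were 0.39, 0.28 and 0.068. In that row water replicate 4 is the single control and is assumed to vary like the captopril arrays. The median of the markers moved to 0.30 there, and that of all genes from −0.03 to 0.11. Median scaling over 6 arrays moved these medians the other way, to −0.36 for the markers and −0.33 for all genes. The cause of these changes was not tested.

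Deviations of same-numbered arrays from their group means correlated at −0.015, 0.022 and −0.192, and those of the other pairs at −0.125 to 0.254. Each water mean of 3 arrays includes water replicate 3, which stands apart. These correlations therefore cannot show whether the numbers pair cultures. With the replicate number as a block, 0 markers and 0 of all genes were called and the median of the markers was −0.06. Signal over background limits the second probes of Adgra3 and Mcam.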

Other observations

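The named gene whose level over the 6 arrays was most like that of each sorting marker, with systematic symbols left out, was C2 for Thy1 (Pearson r = 0.997), Rab5c for Itga6 (0.999), Strn for Itgb1 (0.990), Carnmt1 for Cdh1 (0.998), Ctsz for Adgra3 (0.995), Rbm45 for Mcam (r = 0.9995), Ppp1r3b for Epcam (0.999), Naa80 for Tspan8 (0.991), Cracdl for Cd9 (0.999) and Efna5 for Cd24a (0.997). These are descriptions over 6 arrays, of which water replicate 3 stands apart, chosen as the highest over all named genes tested. Between 78 genes (Tspan8) and 1353 genes (Mcam) had an r over 0.95 with a marker.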
